A study of Mus musculus with 18 samples.

Results

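Bulk B16F10 melanomas differed widely in how much leukocyte RNA they held, and the 6 tumors richest in it were compared here with the 6 poorest, 12 of the 18 tumors sequenced. The sides were chosen by ranking all 18 tumors on the FPKM value (fragments scaled to gene length and to the depth of the library) of Ptprc, the gene of the pan-leukocyte surface phosphatase CD45, whatever the treatment. Ptprc itself was therefore left out of every result. B16F10 is an established mouse melanoma line, grown here under the skin of the flank of female C57BL/6 mice. From day 6, at a volume near 50 mm3, tumors were injected every 2 days, and they were collected 48 h after the last injection. There were 6 treatments with 3 tumors each. PBS was the vehicle control. PS473 is a Pistol ribozyme, a small self-cleaving RNA recoded to cut the mRNA of PD-L1, the checkpoint ligand encoded by Cd274, and was given alone (Free PS473), with cationic polymers (PS473@CPs) or in a manganese metal-organic framework (PS473@NKMOF-101-[Mn]). The framework was also given empty (NKMOF-101-[Mn]) or loaded with M5, the inactive mutant of the ribozyme (M5@NKMOF-101-[Mn]). Cells were implanted in 1 flank of each mouse, so tumors were taken to come from different mice, although the labels do not number the animals.

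Leukocytes that enter a tumor bring transcripts that melanoma cells largely lack. Macrophages, often numerous in B16F10 tumors, clear debris and complement-coated targets, present peptides on MHC class II and carry the receptor for the growth factor CSF1. T and NK cells kill with granzymes, and interferon-γ from them induces MHC molecules, guanylate-binding proteins and PD-L1 in neighbouring cells.

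The rich side held M5@NKMOF-101-[Mn] tumors 2 and 3, NKMOF-101-[Mn] tumors 1 and 3, PS473@NKMOF-101-[Mn] tumor 2 and PS473@CPs tumor 3. The poor side held Free PS473 tumors 1 and 2, PS473@NKMOF-101-[Mn] tumors 1 and 3, PBS tumor 1 and PS473@CPs tumor 1. Tumors that received the framework made up 5 of the 6 rich, 2 of the 6 middle and 2 of the 6 poor tumors. No PBS or Free PS473 tumor was on the rich side, and the poor side held no tumor given the empty or the M5-loaded framework. PS473@CPs had 1 tumor on each side and 1 in the middle, so treatments were spread unevenly and overlapped only in part. As a description of the choice, Ptprc ranged from 3.61 to 6.12 FPKM on the rich side and from 0.745 to 1.81 FPKM on the poor side. The nearest tumors outside had 3.56 FPKM (PS473@CPs tumor 2) and 2.80 FPKM (M5@NKMOF-101-[Mn] tumor 1), so the upper boundary fell between nearly equal tumors. Ranking by a list of 28 other pan-leukocyte genes chose 5 of the same rich and 6 of the same poor tumors. The depth recovered from the values was 17770000 to 28401000 fragments on the rich side and 20023000 to 25653000 on the poor side.

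Pan-leukocyte, macrophage and phagocyte genes were called in the largest shares, an order that did not hold with treatment as a factor. Of 12356 genes tested, 421 were higher in the rich tumors, which is 3.41%, and 26 were lower, which is 0.21% (limma, adjusted p under 0.05). Above 2-fold, 149 were higher and 0 were lower. At an unadjusted p under 0.05 the counts were 1484 and 626. In 375 genes (3.03%) every rich tumor lay above every poor tumor, and in 40 genes (0.324%) every poor tumor lay above. The median log2 fold change over all genes tested was 0.01. Of the genes called higher, 109 belonged to 1 or more of the 30 lists examined, and 0 of the genes called lower did. Each count of list members called higher below stands against the 3.41% of all genes called higher. Because the sides were set by a gene measured in the same libraries, these tests show how closely a gene followed Ptprc and do not test a treatment. In bulk RNA, fewer cells of a type and less RNA per cell cannot be told apart.

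**Figure D1:**
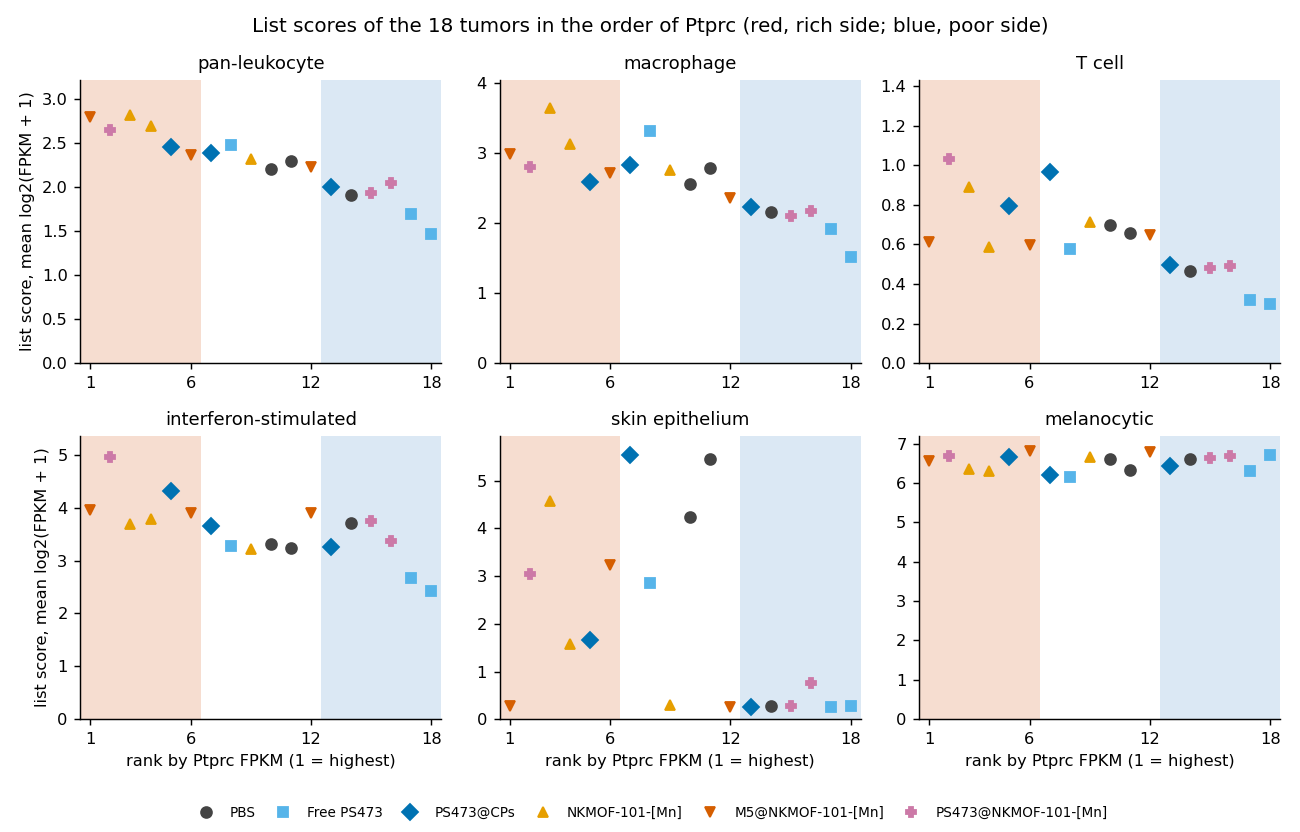
Scores of 6 gene lists (y axis, mean log2(FPKM + 1) of the list's genes) in each of the 18 tumors, placed by rank of Ptprc FPKM (x axis, 1 is highest); each point is 1 tumor, with the treatment given by colour and shape, the rich side shaded red and the poor side blue. Leukocyte and macrophage scores fell along the rank with no overlap between the sides, the melanocytic score lay between 6.16 and 6.80 throughout, and the highest skin epithelium score, 5.55, was in a middle tumor.

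Skin transcripts and the carrier moved with the sides. The score of 29 epidermal genes (mean log2(FPKM + 1)) was 0.28 to 4.58 in the rich tumors, with a median of 2.36, and 0.25 to 0.76 in the poor tumors, with a median of 0.27. It was low, 0.28, in M5@NKMOF-101-[Mn] tumor 2, which had the highest Ptprc of all, and highest in 2 middle tumors, PS473@CPs tumor 2 and PBS tumor 2. With this score as a covariate in limma the same 12 tumors gave 0 calls in either direction, and with carrier as a factor they also gave 0. With carrier, Itgb2 had a log2 fold change of 1.12 and Laptm5 of 1.16, just past the threshold (limma, adjusted p = 0.0508 for both), and the median was 0.91 over the pan-leukocyte and 0.94 over the macrophage genes, against 1.00 and 1.15 without it. With the skin score, Itgb2 had a log2 fold change of 1.39 (limma, adjusted p = 0.0568). Without the 3 rich tumors of highest skin score, 122 genes were higher and 0 lower, and 117 of these 122 were among the 421. Across all 18 tumors, with Ptprc as a continuous term beside the skin score, 288 genes (2.33%) followed it upwards, 237 of them among the 421. With treatment in place of the skin score, the count was 332 (2.69%), 245 of them among the 421. With treatment as a factor in the 12 tumors, where only PS473@CPs and PS473@NKMOF-101-[Mn] had tumors on both sides, 71 genes were higher, 28 of them among the 421. The part of skin content, treatment and the carrier in the calls of the side comparison was not tested beyond these fits.

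Pan-leukocyte genes rose together. Of 28 genes in the list, 23 passed the filter (a mean over all tumors of 1 FPKM or more) and 18 were higher, with a median log2 fold change of 1.00 against 0.01 over all genes. The median was 1.02 with the skin score in the model. Laptm5, a lysosomal membrane protein of blood cells, was at 19.5, 23.8 and 35.9 FPKM (lowest, median and highest) in the rich tumors and at 5.65, 9.68 and 11.8 FPKM in the poor. All rich tumors lay above all poor ones, with a log2 fold change of 1.35 ± 0.18 (SE; limma, adjusted p = 0.00422). Itgb2, the β2 integrin chain that leukocytes use to adhere, was named after its values were seen because it had the smallest adjusted p of the comparison. It was at 10.9, 13.8 and 19.7 FPKM in the rich tumors and at 4.10, 5.47 and 6.77 FPKM in the poor, a log2 fold change of 1.22 ± 0.13 (limma, adjusted p = 0.0037). Arhgdib, Arhgap30 and Ptpn6, which are regulators of small GTPases and a phosphatase, did not pass. They were the 3 most abundant genes of the list, and Arhgdib stood at 110 to 169 FPKM in the poor tumors and 112 to 148 FPKM in the rich, a log2 fold change of 0.02 ± 0.10. Ptpn6 had a log2 fold change of 0.22 ± 0.10 and Arhgap30 of 0.11 ± 0.07.

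**Figure D2:**
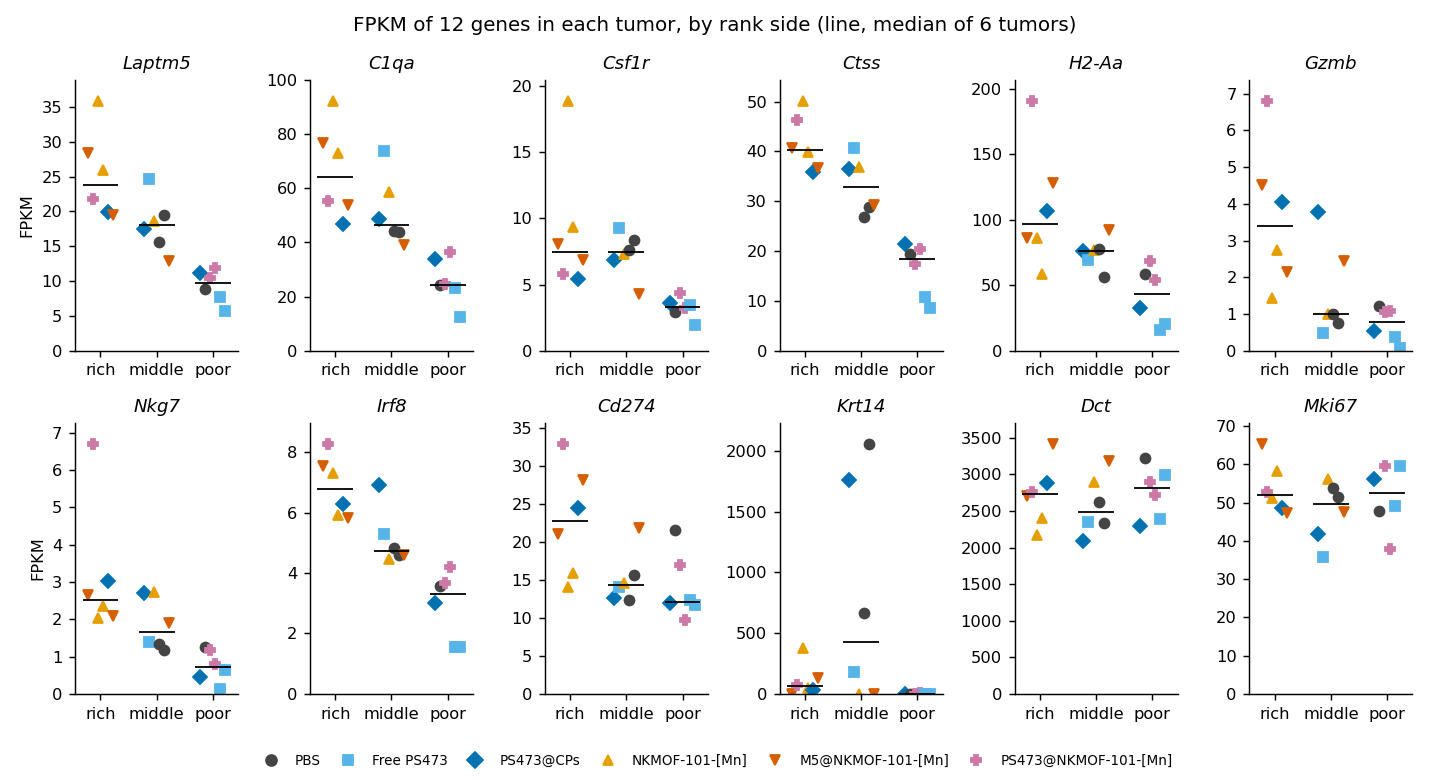
FPKM (y axis, linear) of 12 genes in each tumor, grouped as the 6 rich, 6 middle and 6 poor tumors (x axis); each point is 1 tumor with its treatment shown by colour and shape, and the line is the median of the 6. Laptm5, C1qa, Csf1r, Ctss, Gzmb, Nkg7 and Irf8 had no overlap between rich and poor tumors, H2-Aa and Cd274 overlapped, Krt14 was highest in middle tumors, and Dct and Mki67 had similar medians on both sides.

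Macrophage genes rose about as fully as the pan-leukocyte genes, of which 19 of 23 tested had no overlap between the sides. Of 25 macrophage genes, 21 were tested, 17 were higher and 16 had no overlap, with a median log2 fold change of 1.15, or 0.92 with the skin score in the model. Over all genes tested, 3.41% were called higher and 3.03% had every rich tumor above every poor tumor. The C1q chains, which opsonize dying cells and are made in tumors mainly by macrophages, led by level. C1qa was at 46.9, 64.1 and 92.4 FPKM in the rich tumors and at 12.4, 24.4 and 36.6 FPKM in the poor, a log2 fold change of 1.37 ± 0.23 (limma, adjusted p = 0.00747). C1qb and C1qc behaved alike, with log2 fold changes of 1.31 ± 0.26 and 1.39 ± 0.24 (limma, adjusted p = 0.0157 and 0.00772). Csf1r, the CSF1 receptor on which macrophages depend, was at 5.41, 7.49 and 18.9 FPKM in the rich tumors and at 1.98, 3.33 and 4.38 FPKM in the poor. Its log2 fold change was 1.15 ± 0.24, and NKMOF-101-[Mn] tumor 1 held the highest value. Adgre1, the F4/80 antigen, was at 3.67, 6.36 and 13.7 FPKM against 1.29, 2.79 and 3.22 FPKM, a log2 fold change of 1.10 ± 0.25 (limma, adjusted p = 0.0293). Several further markers of myeloid cells were not called. Lyz2, lysozyme, was at 31.1, 58.5 and 188 FPKM in the rich tumors and 26.2, 41.0 and 47.3 FPKM in the poor, a log2 fold change of 0.66 ± 0.33 (limma, adjusted p = 0.331). The mannose receptor gene Mrc1 had a log2 fold change of 0.68 ± 0.47 and spanned 1.25 to 21.4 FPKM within the rich side. Arg1, arginase, had one of 1.35 ± 0.52 (limma, adjusted p = 0.2), and Nos2 was below the filter, at 1.04 to 2.64 FPKM in the rich and 0.202 to 1.17 FPKM in the poor tumors.

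Genes by which phagocytes sense, engulf and oxidize their targets moved with them. In this list of 28, 22 were tested and 16 were higher, with a median log2 fold change of 0.83. Ctss, the lysosomal protease cathepsin S that trims the MHC class II invariant chain, was at 35.9, 40.2 and 50.2 FPKM in the rich tumors and at 8.50, 18.4 and 21.5 FPKM in the poor. The log2 fold change was 1.36 ± 0.20 with no overlap (limma, adjusted p = 0.00512). Fcer1g, the signaling chain shared by Fc receptors, had a log2 fold change of 1.35 ± 0.25. Cybb and Cyba, which form the membrane core of the phagocyte oxidase, had log2 fold changes of 1.04 ± 0.14 and 1.02 ± 0.23 (limma, adjusted p = 0.00441 and 0.0316). Cyba overlapped between the sides, and Cybb did not. Without the 3 rich tumors of highest skin score 2 of the 22 were called, at a median of 0.76, and 7 macrophage and 12 pan-leukocyte genes were called.

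Spi1, which encodes the transcription factor PU.1 of myeloid and B cells, was at 3.72, 6.92 and 9.80 FPKM in the rich tumors and at 0.983, 2.60 and 3.13 FPKM in the poor, a log2 fold change of 1.20 ± 0.21 (limma, adjusted p = 0.00756). PU.1 binds DNA at the motif GAGGAAGT. The promoter windows of RefSeq, 250 bases before to 50 after a gene's start in build GRCm38.p6, were searched for these letters and their reverse complement ACTTCCTC. A window was found for 313 of the 421 genes called higher. The motif was in 25 of their 401 windows (6.23%), in 328 of 11223 windows of the other genes tested (2.92%) and in 3.20% of all 32851 windows in the table. It was in 4 of 19 windows of the pan-leukocyte genes tested, 4 of 18 of the phagocyte genes, 1 of 15 of the macrophage genes, 0 of 16 of the skin epithelium genes and 0 of 14 of the melanocytic genes. A match describes these letters and is not a binding site. The windows below belong, in each of the 3 leukocyte lists, to the most abundant called gene with a match, and show it in capitals within a sequence read 5′ to 3′ on the gene's strand.
Cd53 promoter, chr3:106790100-106790399, minus strand: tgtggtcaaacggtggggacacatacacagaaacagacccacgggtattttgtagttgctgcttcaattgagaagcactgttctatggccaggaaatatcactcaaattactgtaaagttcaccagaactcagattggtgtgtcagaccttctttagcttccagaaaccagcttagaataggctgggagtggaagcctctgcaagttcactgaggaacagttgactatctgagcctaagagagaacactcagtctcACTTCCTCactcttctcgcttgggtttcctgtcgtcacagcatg
C1qc promoter, chr4:136892865-136893164, minus strand: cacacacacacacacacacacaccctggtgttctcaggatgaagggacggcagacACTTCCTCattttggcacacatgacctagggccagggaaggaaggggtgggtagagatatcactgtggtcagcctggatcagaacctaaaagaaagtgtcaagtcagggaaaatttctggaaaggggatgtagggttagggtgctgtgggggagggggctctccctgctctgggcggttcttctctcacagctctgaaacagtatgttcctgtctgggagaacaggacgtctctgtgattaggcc
Ctss promoter, chr3:95526536-95526835, plus strand: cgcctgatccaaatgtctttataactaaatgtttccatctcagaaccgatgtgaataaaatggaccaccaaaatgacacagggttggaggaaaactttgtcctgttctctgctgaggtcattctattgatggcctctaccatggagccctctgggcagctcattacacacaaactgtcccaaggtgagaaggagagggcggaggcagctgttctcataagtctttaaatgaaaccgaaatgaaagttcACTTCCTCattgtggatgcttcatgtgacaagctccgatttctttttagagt
In Cd53, a tetraspanin of leukocytes, the match began at base 257 of 300, in Ctss at base 249 and in C1qc at base 56. All 3 matches read ACTTCCTC on the gene's strand. Cd53 was at 4.46, 7.57 and 9.60 FPKM in the rich tumors and 0.946, 2.37 and 4.38 FPKM in the poor, a log2 fold change of 1.33 ± 0.25 (limma, adjusted p = 0.0116).

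Antigen presentation was higher in part. Of 10 MHC class II genes 7 were tested, all 7 were positive and 4 were higher (Cd74, H2-Aa, H2-DMa and Ciita, the class II transactivator), at a median log2 fold change of 1.39. H2-Aa, the class II α chain, was at 58.6, 96.7 and 191 FPKM in the rich tumors and at 15.9, 43.6 and 68.6 FPKM in the poor. The sides overlapped, and the log2 fold change of 1.46 ± 0.37 passed narrowly (limma, adjusted p = 0.0483). The partner chain gene H2-Ab1 had a log2 fold change of 1.39 ± 0.38 and missed (limma, adjusted p = 0.0689). Leaving out single tumors changed the class II count between 0, without M5@NKMOF-101-[Mn] tumor 2, and 6. Of 23 MHC class I genes 21 were tested and 8 were higher, at a median log2 fold change of 0.76. That count was 5 without PS473@NKMOF-101-[Mn] tumor 2, PS473@CPs tumor 1 or either poor Free PS473 tumor, and 12 without PBS tumor 1. H2-K1, a classical class I heavy chain, was named after its values were seen, at 68.6, 76.7 and 96.7 FPKM against 18.9, 39.0 and 51.6 FPKM. Its log2 fold change was 1.11 ± 0.21 with no overlap (limma, adjusted p = 0.0125). B2m, the shared light chain, was at 1490, 1990 and 2780 FPKM in the rich and at 850, 1470 and 1690 FPKM in the poor tumors, and its log2 fold change of 0.60 ± 0.19 did not pass (limma, adjusted p = 0.117). The class I heavy chains are near-identical paralogs, and how the counting split their fragments is not given in the sources used here.

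Interferon-stimulated genes moved in 1 direction and were called in part. All 49 were tested, all 49 had a positive log2 fold change, at a median of 0.82, and 9 were called. Among all genes tested, 3.41% were called higher. Gbp2, Gbp4, Gbp5, Gbp7, Irf1, Cxcl9, Oasl1 and Dtx3l were among the 9, a choice made with their values known. The Gbp genes encode guanylate-binding proteins that attack the vacuoles of microbes, and Irf1 is a transcription factor of the interferon response. Gbp2 was at 44.2, 62.1 and 119 FPKM in the rich tumors and at 8.64, 25.6 and 45.1 FPKM in the poor, with a small overlap and a log2 fold change of 1.49 ± 0.37 (limma, adjusted p = 0.0426). The count depended on single tumors, from 1 without PS473@CPs tumor 1 to 16, and it was 25 with Ptprc as a continuous term over 18 tumors. PS473@NKMOF-101-[Mn] tumor 2 had the highest score of all tumors, 4.96, and Free PS473 tumor 2 the lowest, 2.42. Of 26 chemokines 16 were tested and 6 were higher, at a median log2 fold change of 0.93, falling to 3 without PS473@NKMOF-101-[Mn] tumor 2 or Free PS473 tumor 1. Ccl2, which draws monocytes, was at 10.8, 16.1 and 19.7 FPKM in the rich tumors and at 4.50, 6.91 and 10.5 FPKM in the poor, a log2 fold change of 1.08 ± 0.19 (limma, adjusted p = 0.00772). Cxcl9, which draws T cells through CXCR3, had a log2 fold change of 1.42 ± 0.26 with no overlap, and Cxcl10, a ligand of the same receptor, one of 0.55 ± 0.19 that did not pass (limma, adjusted p = 0.153).

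Lymphocyte transcripts were near the lower end of the scale. Of 25 T cell genes only 7 passed the filter, of 18 NK and cytotoxic genes 3, of 15 B cell genes 1 and of 10 plasma cell genes 3. The score of the T cell list was 0.59 to 1.03 in the rich and 0.30 to 0.50 in the poor tumors, without overlap. Gzmb, granzyme B, was at 1.44, 3.40 and 6.81 FPKM in the rich tumors and at 0.0773, 0.794 and 1.22 FPKM in the poor, a log2 fold change of 1.36 ± 0.27 (limma, adjusted p = 0.0148). Nkg7, a granule protein of killer lymphocytes, had a log2 fold change of 1.20 ± 0.23, and PS473@NKMOF-101-[Mn] tumor 2 held its highest value, 6.70 FPKM. Cd3g, a chain of the T cell receptor complex, was the 1 T cell gene called, with a log2 fold change of 0.67 ± 0.17 (limma, adjusted p = 0.0426). The T cell markers below the filter were Cd3e at 0.123 to 1.19 FPKM against 0.0544 to 0.332 FPKM, Cd4 at 0.107 to 0.342 FPKM against 0.0402 to 0.129 FPKM and Cd8a at 0.637 to 2.35 FPKM against 0.0795 to 0.574 FPKM. For Cd8a, the coreceptor of killer T cells, the sides did not overlap. Foxp3, the factor that defines regulatory T cells, was at 1.51 to 2.01 FPKM and 1.52 to 2.29 FPKM, a log2 fold change of -0.00 ± 0.08. Over all 18 tumors it spanned 1.51 to 2.36 FPKM, while Cd4 did not exceed 0.346 FPKM. In Free PS473 tumor 2, Foxp3 was at 1.82 FPKM and Cd3d, another T cell gene, at 0. Its level is therefore not read here as the content of regulatory T cells. Ighm, the μ heavy chain, was the 1 plasma cell gene called (log2 fold change 1.09 ± 0.20), while Igkc ranged from 1.14 to 50.3 FPKM within the rich and from 0.330 to 21.0 FPKM within the poor side.

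Most granulocyte and dendritic cell genes fell below the filter, so the counts of calls are small. Of 18 neutrophil genes 5 were tested and Mmp9 alone was called, or 0 to 2 genes with single tumors left out. Ly6g was listed at 0 in every tumor. S100a8, a neutrophil alarmin, was at 0.364, 3.01 and 10.8 FPKM in the rich tumors and at 0, 0.0634 and 0.497 FPKM in the poor, with a log2 fold change of 1.71 ± 0.45 that did not pass (limma, adjusted p = 0.0583). In the middle tumors it reached 252 FPKM, so the order of this gene did not follow the order of Ptprc. Its highest values were in PBS tumor 2 (252 FPKM) and PS473@CPs tumor 2 (178 FPKM), whose skin scores of 5.46 and 5.55 were the highest. Other tumors with skin RNA varied. S100a8 was at 77.9 FPKM in PBS tumor 3 (skin score 4.24) and at 82.4 FPKM in Free PS473 tumor 3 (2.85). It was at 4.50 FPKM in NKMOF-101-[Mn] tumor 1 (4.58) and at 10.8 FPKM in M5@NKMOF-101-[Mn] tumor 3 (3.24). Whether this RNA came from neutrophils or from skin was not tested. Of 16 dendritic cell genes 6 were tested and 2 were called. Irf8, a factor of dendritic cells and macrophages, was at 5.83, 6.78 and 8.28 FPKM against 1.56, 3.30 and 4.21 FPKM, a log2 fold change of 1.05 ± 0.18 (limma, adjusted p = 0.00756). The other was the integrin gene Itgax, and Flt3 and Xcr1, which mark dendritic cells more narrowly, did not exceed 0.258 and 0.363 FPKM in either side. Of 12 monocyte genes 3 were tested and Ms4a6c was called. Of 13 genes of mast cells, basophils and eosinophils 1 was tested and 0 were called.

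Among checkpoints and suppressive enzymes, 10 of 23 were tested and 4 were higher, at a median log2 fold change of 0.60, and 2 without PS473@NKMOF-101-[Mn] tumor 2 or Free PS473 tumor 2. They were Vsir (VISTA), Havcr2 (TIM-3), Entpd1 (the ectonucleotidase CD39) and Tgfb1. Vsir was at 1.45, 1.98 and 3.02 FPKM in the rich tumors and at 0.341, 0.777 and 0.890 FPKM in the poor, a log2 fold change of 0.87 ± 0.14 (limma, adjusted p = 0.00538). Cd274, the target of PS473, was at 14.1, 22.7 and 32.9 FPKM in the rich tumors and at 9.74, 12.1 and 21.5 FPKM in the poor. The sides overlapped and the log2 fold change of 0.65 ± 0.22 did not pass (limma, adjusted p = 0.14). PS473 was given to 2 of the 6 rich and 5 of the 6 poor tumors. On the rich side Cd274 was at 32.9 FPKM in PS473@NKMOF-101-[Mn] tumor 2 and 24.5 FPKM in PS473@CPs tumor 3. It was at 21.0 and 28.2 FPKM in the M5@NKMOF-101-[Mn] tumors and at 14.1 and 15.9 FPKM in the NKMOF-101-[Mn] tumors of that side. The part of PS473 in the Cd274 difference between the sides was not tested. Pdcd1, the receptor PD-1, was below the filter at 0.368 to 0.820 FPKM against 0 to 0.525 FPKM, as was Ctla4. Of 18 complement genes 13 were tested and 6 were higher, at a median of 0.67, with 3 to 5 called when any 1 tumor was left out and fewest without Free PS473 tumor 1. C4b, the classical pathway component, had a log2 fold change of 1.08 ± 0.22 and Serping1, the C1 inhibitor, one of 1.48 ± 0.31 (limma, adjusted p = 0.0176 and 0.0219).

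**Figure D3:**
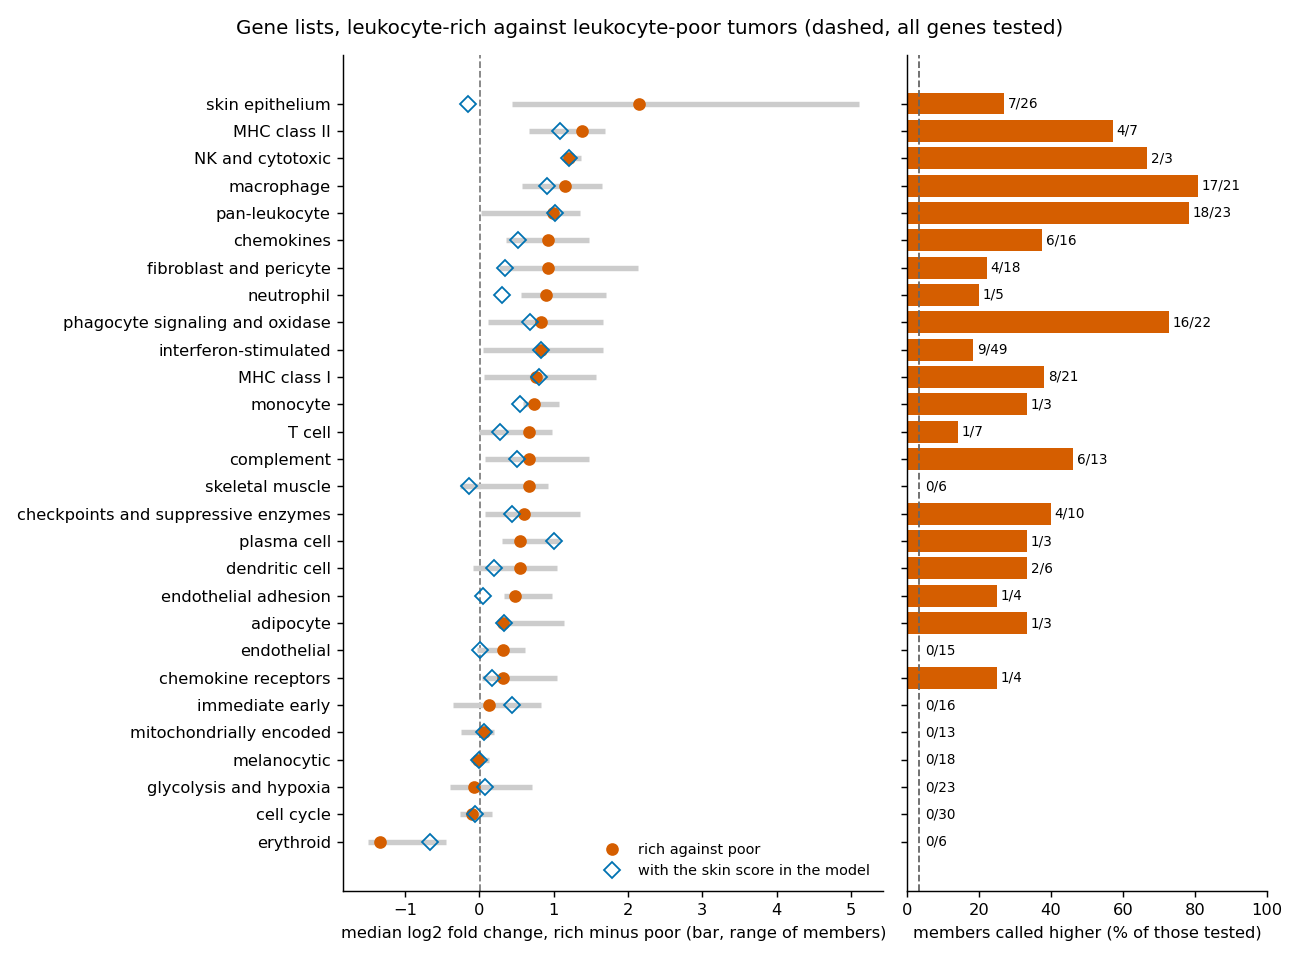
Left, median log2 fold change (x axis, rich minus poor) of the tested members of each list with 3 or more, from the comparison of 12 tumors (filled circles; grey bars span the members) and with the skin score in the model (open diamonds). Right, percent of tested members called higher, with the counts; dashed lines mark the median of all genes, 0.01, and the share of all genes called higher, 3.41%. Macrophage (17 of 21), pan-leukocyte (18 of 23) and phagocyte (16 of 22) lists had the highest shares, and the median of the skin epithelium list went from 2.14 to -0.15 with the score in the model. The score is the mean of that same list, so this fall was fixed by the model and is not a result.

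The genes with the largest fold changes were epidermal. Krt14, Krt5, Krt6a, Krt17, Calm4, Perp, Ly6d, Sfn, Col17a1 and Lypd3, the 10 largest increases, are keratins and other genes of stratified epithelium. Krt14, the keratin of basal keratinocytes, was at 0.272, 64.2 and 375 FPKM in the rich tumors and at 0, 0.0136 and 4.07 FPKM in the poor, a log2 fold change of 5.10 ± 1.06 (limma, adjusted p = 0.0197). The sides overlapped, since M5@NKMOF-101-[Mn] tumor 2 lay with the poor tumors, and Krt14 was higher still in the middle, at up to 2060 FPKM in PBS tumor 2. Of 29 epidermal genes 26 were tested, all 26 were positive and 7 were higher, at a median log2 fold change of 2.14. With Ptprc as a continuous term over the 18 tumors 0 of the 26 were called, and 19 of 23 pan-leukocyte, 17 of 21 macrophage and 16 of 22 phagocyte genes were. Ptprc also set the sides, so these counts describe how closely genes followed it and are no separate test. Leaving out single tumors changed the count of 7 to between 1, without PS473@NKMOF-101-[Mn] tumor 2, and 16. M5@NKMOF-101-[Mn] tumor 2 had little epidermal RNA (Krt5 0.0451 FPKM) and the highest Itgb2 of all tumors, 19.7 FPKM, with C1qa at 76.6 FPKM and Laptm5 at 28.4 FPKM. Each of these 3 leukocyte genes was above the highest poor tumor. This tumor also had the highest Ptprc, by which the sides were chosen, so its values are no separate test. Skin scores of 5 of the 6 rich tumors lay above the highest poor tumor. The part of skin content in the leukocyte values was not tested here.

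**Figure D4:**
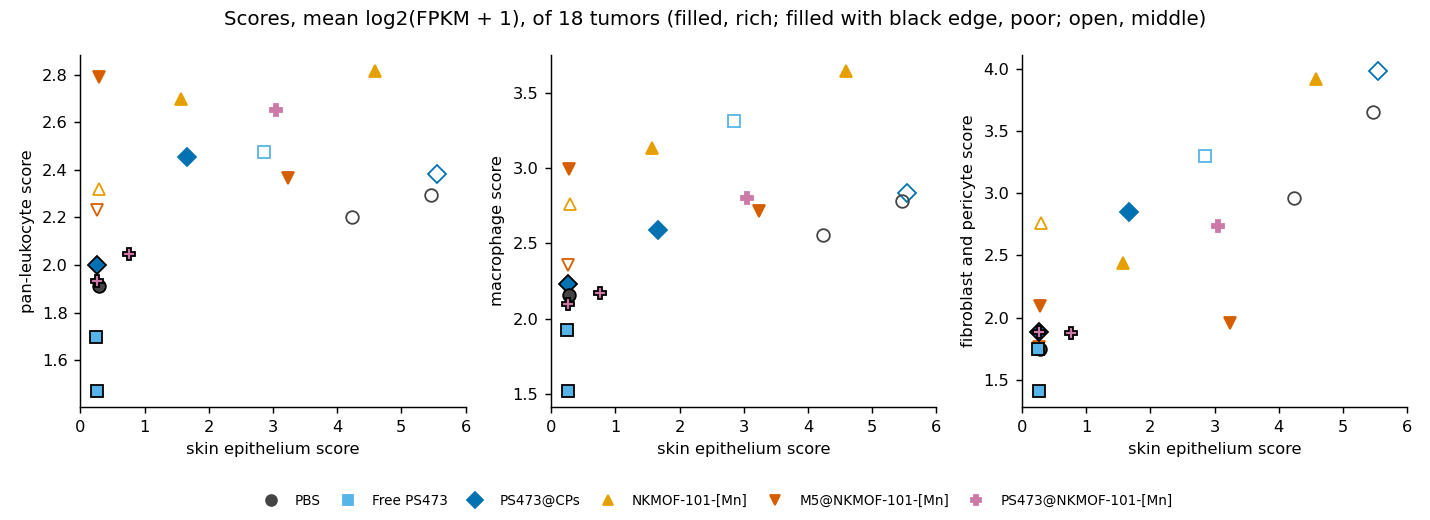
Skin epithelium score (x axis) against the pan-leukocyte, macrophage and fibroblast and pericyte scores (y axes, all mean log2(FPKM + 1)) in 18 tumors, 1 point each; filled symbols are rich, filled symbols with a black edge poor and open symbols middle tumors, with treatment by colour and shape. All 6 poor tumors had skin scores of at most 0.76, and 1 rich tumor had 0.28. Over the 18 tumors the skin score rose with the pan-leukocyte (Pearson r = 0.455), macrophage (0.58) and fibroblast and pericyte (0.86) scores. The tumor with the highest skin score, 5.55, did not have the highest pan-leukocyte or macrophage score.

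Stromal genes were mostly positive and were called in part, where 3.41% of all genes tested were called higher. Of 21 fibroblast and pericyte genes 18 were tested and 4 were higher (Dcn, Col5a2, Col6a3 and Pdgfrb), at a median log2 fold change of 0.92, or 0.35 with the skin score in the model. Dcn, the collagen-binding proteoglycan decorin, was at 1.89, 7.10 and 26.8 FPKM in the rich tumors and at 0.139, 0.619 and 3.29 FPKM in the poor, a log2 fold change of 2.13 ± 0.50 (limma, adjusted p = 0.0349). Col1a1, the type I collagen chain, was more abundant, at 29.4, 89.3 and 233 FPKM against 13.7, 25.6 and 36.7 FPKM, and its log2 fold change of 1.63 ± 0.45 did not pass (limma, adjusted p = 0.0711). The count of 4 went to between 0, without PS473@NKMOF-101-[Mn] tumor 2, and 6. Of 15 endothelial genes tested 0 were called, at a median of 0.32, and Icam1, an adhesion molecule of activated endothelium and leukocytes, was the 1 of 4 adhesion genes that was (log2 fold change 0.98 ± 0.18). Lpl, lipoprotein lipase, was the 1 adipocyte gene called of 3 tested, and of 6 skeletal muscle genes 0 were called. For the erythroid list 0 of 6 were called, and the hemoglobin gene Hba-a1 spanned 15.4 to 2520 FPKM in the rich and 22.9 to 5340 FPKM in the poor tumors.

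Melanoma and growth genes did not separate the sides. Of 18 melanocytic genes 0 were called, and the median log2 fold change was -0.01. Dct, an enzyme of melanin synthesis, was at 2170, 2740 and 3420 FPKM in the rich tumors and at 2300, 2810 and 3230 FPKM in the poor, a log2 fold change of -0.02 ± 0.12. Pmel, which forms the fibrils of melanosomes, was at 1110 to 1840 FPKM and 1060 to 1630 FPKM, and Mitf, the master factor of the lineage, had a log2 fold change of -0.02 ± 0.08. The tumors on both sides carried the markers of their label. Of 30 cell cycle genes 0 were called at a median of -0.10, with Mki67 at 47.2, 51.9 and 65.4 FPKM against 37.9, 52.6 and 59.7 FPKM. Of 23 genes of glycolysis and hypoxia, 16 immediate early genes and 13 mitochondrially encoded genes 0 were called either, with medians of -0.08, 0.14 and 0.06. A result that did not pass does not show equal levels.

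The 26 genes lower in the rich tumors changed little, and 0 of them exceeded 2-fold. Phgdh, the first enzyme of serine synthesis, was at 118, 128 and 180 FPKM in the rich tumors and at 159, 181 and 226 FPKM in the poor, a log2 fold change of -0.44 ± 0.11 (limma, adjusted p = 0.0469). H2aj, a histone H2A variant gene, had a log2 fold change of -0.40 ± 0.10 and Prxl2a, a peroxiredoxin-like protein gene, of -0.45 ± 0.11. Bax, the pore-forming effector of apoptosis, was named after its values were seen, at 61.8 to 78.0 FPKM against 79.5 to 96.5 FPKM, a log2 fold change of -0.33 ± 0.07 without overlap (limma, adjusted p = 0.0168). The count was 2 without PS473@NKMOF-101-[Mn] tumor 2.

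Within treatments that had tumors on both sides, the values can only be set side by side. Among PS473@NKMOF-101-[Mn] tumors, the rich tumor 2 had C1qa at 55.2 FPKM and the poor tumors 1 and 3 had 24.6 and 36.6 FPKM. H2-Aa was at 191 FPKM against 68.6 and 54.3 FPKM, Gzmb at 6.81 FPKM against 1.06 and 1.08 FPKM, and Cd274 at 32.9 FPKM against 17.0 and 9.74 FPKM. Tumor 2 was above both in each of these 4 genes, and also in Krt14, at 75.7 FPKM against 0.162 and 4.07 FPKM. Among PS473@CPs tumors, C1qa was at 46.9 FPKM in the rich tumor 3 and 33.7 FPKM in the poor tumor 1, Gzmb at 4.04 and 0.525 FPKM and Cd274 at 24.5 and 11.9 FPKM. Krt14 was at 36.3 and 0.0272 FPKM. In both treatments the rich tumor was above the poor tumors in each of these genes, the epidermal one included. They are a selection made with the values known, and Mrc1 did not follow them. It was at 1.25 FPKM in PS473@CPs tumor 3 and 2.89 FPKM in tumor 1. In PS473@NKMOF-101-[Mn] tumor 2 it was at 1.57 FPKM, against 2.33 and 1.42 FPKM in tumors 1 and 3. In the fit of all 18 tumors with Ptprc as a continuous term and treatment as a factor, 18 of 23 pan-leukocyte, 17 of 21 macrophage, 17 of 22 phagocyte and 20 of 49 interferon-stimulated genes were called higher (limma, adjusted p under 0.05), and 0 of 26 epidermal genes were. Over all genes tested, 2.69% were called higher in that fit. Its term is the gene that set the sides, so it is no separate test. With treatment as a factor in the comparison of the 12 tumors, 0 of 23 pan-leukocyte, 0 of 21 macrophage, 1 of 22 phagocyte and 24 of 49 interferon-stimulated genes were called, at medians of 0.71, 0.69, 0.52 and 1.29, so the lists stood in another order. Over all genes the median was 0.04, and 28 of the 421 genes of the main comparison were called. In that fit the side rested on PS473@CPs and PS473@NKMOF-101-[Mn], with 1 rich tumor each. The latter's rich tumor, tumor 2, had the highest interferon-stimulated score of all tumors, 4.96.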

How the data were processed

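Poly(A) RNA of 18 tumors was sequenced, and the authors deposited FPKM values for 41079 genes, normalized to gene length and to the fragments assigned in each tumor. The build is GRCm39 per the submitters' processing notes, and the aligner, counter and annotation are not given in the sources used here. The titles of 1 group name NKMOF-102, and its tumors were grouped as PS473@NKMOF-101-[Mn]. Depth was estimated from steps between low values (47.3% to 51.4% whole within 0.02 fragments), so no count model was used. Of 153 pairs of tumors, 0 held identical values.

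The 12356 genes whose mean over all tumors was 1 FPKM or more, without Ptprc, were fitted as log2(FPKM + 1) with limma 3.58.1 in R 4.3.3 (trend, no covariate, no replicate block), 6 tumors against 6, two-sided. Adjustment of p-values was by Benjamini-Hochberg over all genes. Fold changes on this scale understate low genes. A list score is the mean log2(FPKM + 1) of all its genes, unfiltered. The procedure was tested on simulated data. Python 3.11.15 with pandas 2.3.3 and matplotlib 3.10.9 served for tables and figures. The sides, the members and the lists were chosen with earlier results of these data known. Named were the 10 largest changes called in each direction, the 4 most abundant tested members of each list, single cell type markers, and members of a list that moved against the rest where 5 or fewer did, of which the text gives a selection. Itgb2, Spi1, Cybb, Cd53, Bax, H2-K1, C3ar1, Xist and the called members of lists were named after their values were seen. Alternatives were another pseudocount, filter, scaling, prior, ranking and call rule, a continuous Ptprc term, treatment, skin score or a replicate block in the model, and each tumor left out. The carrier factor, the continuous term with the skin score and the fit without 3 tumors were added after seeing the data. FPKM hold no counts, and precision for low genes is limited by depth. A few genes are not reported here.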

Additional observations from a re-analysis of the deposited data

Results flagged for a closer look

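In each side of 6 tumors, a highest or lowest tumor was set apart when its gap to the next, as a share of the range on the log2 scale, exceeded Dixon's 95% critical value. For normally distributed values, chance sets apart about 1 group in 20. Among 60 groups of list scores 8 were set apart, and among 198 groups of named genes 19 were. The genes of 1 list are not independent.

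NKMOF-101-[Mn] tumor 1 had the highest score of the rich side in the lists of dendritic cells (1.54, the others 1.10 to 1.23), mast cells, basophils and eosinophils (0.827, the others 0.0533 to 0.322), endothelial adhesion (1.63) and adipocytes (1.78). It also had the highest Pecam1 of that side, an endothelial adhesion molecule, at 18.1 FPKM against 3.61 to 6.77 FPKM in the others, and the highest Entpd1, at 2.46 FPKM.

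PS473@NKMOF-101-[Mn] tumor 3 was set apart on the poor side by epidermal genes, with a skin epithelium score of 0.759 against 0.25 to 0.284 in the others. Its values were 4.07 FPKM for Krt14, 3.43 FPKM for Krt5, 1.59 FPKM for Ly6d and 1.03 FPKM for Perp. They were 0.359 FPKM for Col17a1, 0.321 FPKM for Calm4, 0.183 FPKM for Krt17, 0.113 FPKM for Krt6a and 0.0601 FPKM for Lypd3. For Calm4, Krt17, Krt6a and Lypd3 the other poor tumors were all at 0 FPKM, so any value above 0 would be set apart. The same tumor was highest for the mast cell, basophil and eosinophil score (0.179) and for the glycolytic enzyme gene Eno1, at 3440 FPKM against 2320 to 2610 FPKM.

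Free PS473 tumor 2 was the lowest of the poor side for the B cell score (0.193), the fibroblast and pericyte score (1.41, the others 1.75 to 1.89), Adgre1 (1.29 FPKM, the others 2.42 to 3.22 FPKM) and C3ar1, a complement receptor of myeloid cells (0.685 FPKM). Free PS473 tumor 1 was lowest there for Lyz2 (26.2 FPKM) and PS473@CPs tumor 1 for Hba-a1 (22.9 FPKM, the others 706 to 5340 FPKM). On the rich side, PS473@NKMOF-101-[Mn] tumor 2 was highest for Nkg7 (6.7 FPKM, the others 2.02 to 3.03 FPKM), NKMOF-101-[Mn] tumor 3 for Igkc (50.3 FPKM, the others 1.14 to 4.04 FPKM) and M5@NKMOF-101-[Mn] tumor 3 lowest for Foxp3 (1.51 FPKM).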

How the results depend on the processing

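The 421 higher and 26 lower genes became 232 and 47 with quantile normalization, 71 and 0 with treatment as a factor, 0 and 0 with the skin score as a covariate, 0 and 0 with carrier as a factor, and 122 and 0 without the 3 rich tumors of highest skin score. Beyond 2-fold they were 149 and 0, and at an unadjusted p 1484 and 626. The lower count alone moved to 40 with upper-quartile scaling, 12 with the middle tumors as a group, 6 with the ranking by the pan-leukocyte list and 13 with the continuous term and skin score. Leaving out each tumor in turn gave 241 to 396 higher genes, fewest without Free PS473 tumor 2, and also moved by over 1.5 times without PS473@CPs tumor 1 (260) or PS473@NKMOF-101-[Mn] tumor 2 (268), and 2 to 46 lower genes, fewest without PS473@NKMOF-101-[Mn] tumor 2 and most without its tumor 3. The 109 distinct list genes called higher became 69 with no filter, 40 with treatment, 0 with the skin score, 0 with carrier, 34 without the 3 tumors and 68 above 2-fold. At an unadjusted p they were 223, with 3 lower against 0, and 68 to 105 without single tumors. The other settings (a pseudocount of 0.1, a filter at 0.1 FPKM, no trend, and Ptprc as a continuous term alone or with treatment) kept both totals within 1.5 times, except those lower counts named. Sign changes were counted for 99 named genes only. With the skin score beside a continuous Ptprc, 5 called epidermal genes among them changed sign: Krt6a (-0.0025), Ly6d (-0.035), Sfn (-0.18), Col17a1 (-0.0066) and Lypd3 (-0.16). Ly6d, Sfn and Col17a1 are themselves part of that score. Other sign changes among the named genes were of genes called in neither fit. Called genes outside them also changed sign in that fit, such as Cnfn (-0.17), S100a14 (-0.11) and Il33 (-0.099). The cause of these shifts was not tested.

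The replicate block gave 409 higher and 24 lower genes, 311 and 8 of them shared with the main calls. What else tumors of the same number share is not given in the labels. The median correlation of their deviations was -0.02 over 45 pairs (-0.73 to 0.72). It was -0.01 over 90 pairs of other numbers (-0.69 to 0.72). These medians do not show that a number stands for no batch.

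Most lymphocyte markers fell below the filter at 1 FPKM, and limits of depth were not tested. The ranking rests on 1 gene and 6 tumors a side, treatments are uneven across the sides, and 5 of the 6 rich against 2 of the 6 poor tumors held the carrier.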

Other observations

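Xist, the RNA that coats the inactive X chromosome of female cells, was named after its values were seen. It was at 3.08, 4.64 and 7.49 FPKM in the rich tumors and at 0.534, 1.86 and 3.27 FPKM in the poor, a log2 fold change of 1.06 ± 0.23 (limma, adjusted p = 0.0256). The hosts were female mice. The sides overlapped, and the highest value, 8.01 FPKM, was in a middle tumor, PS473@CPs tumor 2, which also had the highest skin score. In M5@NKMOF-101-[Mn] tumor 2, with little epidermal RNA, Xist was at 4.71 FPKM.

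Dnai2, a dynein chain of motile cilia, and the long RNA B230206L02Rik were lower in the rich tumors without overlap. Dnai2 was at 1.31 to 1.87 FPKM against 1.89 to 3.01 FPKM, a log2 fold change of -0.45 ± 0.11 (limma, adjusted p = 0.0405). B230206L02Rik was at 1.54 to 3.37 FPKM against 3.52 to 5.56 FPKM, a log2 fold change of -0.63 ± 0.14 (limma, adjusted p = 0.0243).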
